A study of Homo sapiens with 54 samples.

Results

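The 8 genes described here, of 58870 in the deposited table, are HMGCS1, IDI1, FDFT1, SQLE, LSS and DHCR7, which encode enzymes of cholesterol synthesis, and INSIG1 and SREBF2, which encode regulators of the pathway. They were found in the table by their symbols, and each matched 1 entry. The RNA came from A549, a human lung cancer line, engineered with an empty vector (E_V) or with a vector for USP18 overexpression (USP18_O_E), called empty-vector cells and USP18 cells here. USP18 is the protease that removes the ubiquitin-like protein ISG15 from other proteins, and the series asks how cells with and without added USP18 respond to a candidate inhibitor of it. Both cell types received DMSO as vehicle, CP2 at 2 or 5 µM, CP14 at 1, 2.5 or 5 µM, or CP18 at 1, 2.5 or 5 µM, for 48 h. These are 18 groups of 3 replicates, 54 libraries in all, with 16673228 to 25609062 counts per library and a median of 19701304. The labels give the compounds by code and do not say which code stands for β-lapachone. The records do not say whether a cell type came from more than 1 engineered population. A difference between the vectors therefore cannot be told apart from any other difference between the engineered cells. The study's methods speak in general of independent biological replicates, but the records do not say whether the libraries of a group came from separate cultures, and the p-values measure the spread between these libraries. The sample records describe poly(A) capture with oligo-dT beads, whereas the methods of the study describe removal of ribosomal RNA.

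Cells build cholesterol from acetyl-CoA through mevalonate, isoprenoid diphosphates, squalene and lanosterol. The transcription factor SREBP-2, the product of SREBF2, is made as a membrane protein of the endoplasmic reticulum, and SCAP escorts it to the Golgi, where proteases release the part that enters the nucleus. When sterols are plentiful, INSIG proteins hold SCAP and SREBP-2 back, and transcription of the synthesis genes is low. INSIG1 and SREBF2 are themselves known SREBP targets, so the pathway includes feedback loops. Lung epithelium uses these lipids for membranes and, in alveolar type II cells, for surfactant.

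Promoter sequences are shown because the 8 genes moved together at the highest dose of CP14, and known SREBP targets carry sterol regulatory elements near their starts, often beside binding sites of the factors NF-Y and Sp1. The RefSeq promoter table (GRCh38.p14) held entries for 6 of the 8 genes, HMGCS1, IDI1, LSS, DHCR7, INSIG1 and SREBF2. In the 250 bases before the start site, both strands were searched for TCACNCCAC (letters of a sterol regulatory element), CCAAT (the NF-Y box), GGGCGG (the GC box of Sp1) and CACGTG (an E box). TCACNCCAC was in 1 of the 6 promoters, that of SREBF2, and in 0.883% of all 35116 promoters. CCAAT was in 5 of the 6, all but DHCR7, and in 32.0% of all promoters. GGGCGG was likewise in 5 of the 6 and in 42.6% of all promoters, and CACGTG was in 1 of the 6, that of INSIG1, and in 6.34% of all. The match of INSIG1 to CACGTG is not within the stretch printed below. The RefSeq start used for DHCR7 lies 3825 bases from the start of the gene in GENCODE. Those of INSIG1, HMGCS1 and LSS lie 102, 100 and 50 bases inside the GENCODE gene, so their searched windows include bases of the gene. Such a match is a description of letters and does not show a bound site. Printed 5′ to 3′ on the strand of the gene are INSIG1 (chr7:155297628-155297775, plus strand), SREBF2 (chr22:41832855-41833104, plus strand) and IDI1 (chr10:1049120-1049369, minus strand). INSIG1 had the lowest share of its vehicle level with 5 µM CP14 in empty-vector cells. SREBF2 is the regulator with the sterol element letters, and IDI1 is an enzyme gene with 2 CCAAT boxes. Capitals mark TCACNCCAC or CCAAT on either strand, with 0 bases shared between both motifs, and the stretch for INSIG1 ends where its GENCODE transcript begins.
INSIG1: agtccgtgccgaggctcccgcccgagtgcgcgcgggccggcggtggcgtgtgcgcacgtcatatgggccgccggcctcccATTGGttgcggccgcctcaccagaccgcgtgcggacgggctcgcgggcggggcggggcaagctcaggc
SREBF2: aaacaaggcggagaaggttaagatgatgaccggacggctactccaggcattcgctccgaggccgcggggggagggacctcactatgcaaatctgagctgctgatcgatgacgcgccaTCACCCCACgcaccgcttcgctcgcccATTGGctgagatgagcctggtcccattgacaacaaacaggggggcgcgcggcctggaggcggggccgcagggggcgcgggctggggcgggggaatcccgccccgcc
IDI1: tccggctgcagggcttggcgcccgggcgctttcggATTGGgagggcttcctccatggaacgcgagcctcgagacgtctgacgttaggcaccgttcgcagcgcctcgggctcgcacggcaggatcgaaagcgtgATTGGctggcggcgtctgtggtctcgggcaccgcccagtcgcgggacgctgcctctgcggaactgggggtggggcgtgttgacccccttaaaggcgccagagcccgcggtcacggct

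Levels are given as CPM, the counts of a gene per 1e6 counts of its library, scaled between libraries by edgeR's TMM method. Levels of different genes are compared only per kilobase of exon, with lengths from GENCODE v44. The methods of the study name other GENCODE releases, a different one for mapping and for quantification. An order of genes on this scale is therefore approximate. On that scale, with vehicle in empty-vector cells, HMGCS1 was the most abundant of the 8 at 30.0 ± 1.39 CPM per kilobase (SD, n = 3), and LSS the least abundant at 5.44 ± 0.341. The others lay between, with FDFT1 at 24.7 ± 0.911, SQLE at 23.9 ± 0.263, IDI1 at 18.0 ± 0.652, SREBF2 at 17.7 ± 0.471, DHCR7 at 13.6 ± 0.533 and INSIG1 at 12.7 ± 0.647 (SD, n = 3 each). FDFT1 and SQLE differed by less than the larger SD, and so did IDI1 and SREBF2. All 8 genes passed the filter on low counts in every fit. GENCODE places opposite-strand long non-coding RNA genes over HMGCS1, FDFT1, IDI1, DHCR7, LSS and SREBF2, and the microRNA gene MIR33A within SREBF2 on the same strand. The libraries were made with a stranded kit, but the strand setting of the counting step is not stated.

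The sum of the 8 genes shows the main pattern. With vehicle it was 821, 822 and 835 CPM in empty-vector cells and 963, 977 and 983 CPM in USP18 cells. With 5 µM CP14 it was 356, 351 and 373 CPM in empty-vector cells (43.6% of the vehicle mean) and 394, 381 and 391 CPM in USP18 cells (39.9%). These 2 groups of libraries lie below all others. With 5 µM CP2 empty-vector cells had a mean sum of 96.1% of vehicle and USP18 cells one of 89.6%, and with 5 µM CP18 it was 99.9% and 93.0%. For each of the 8 genes, the 2 lowest of the 18 group means were those with 5 µM CP14. Most other groups cannot be ordered, because neighbouring groups overlapped in their libraries in 11 (DHCR7 and SREBF2) to 16 (SQLE) of the 17 steps of each gene's order.

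**Figure D1:**
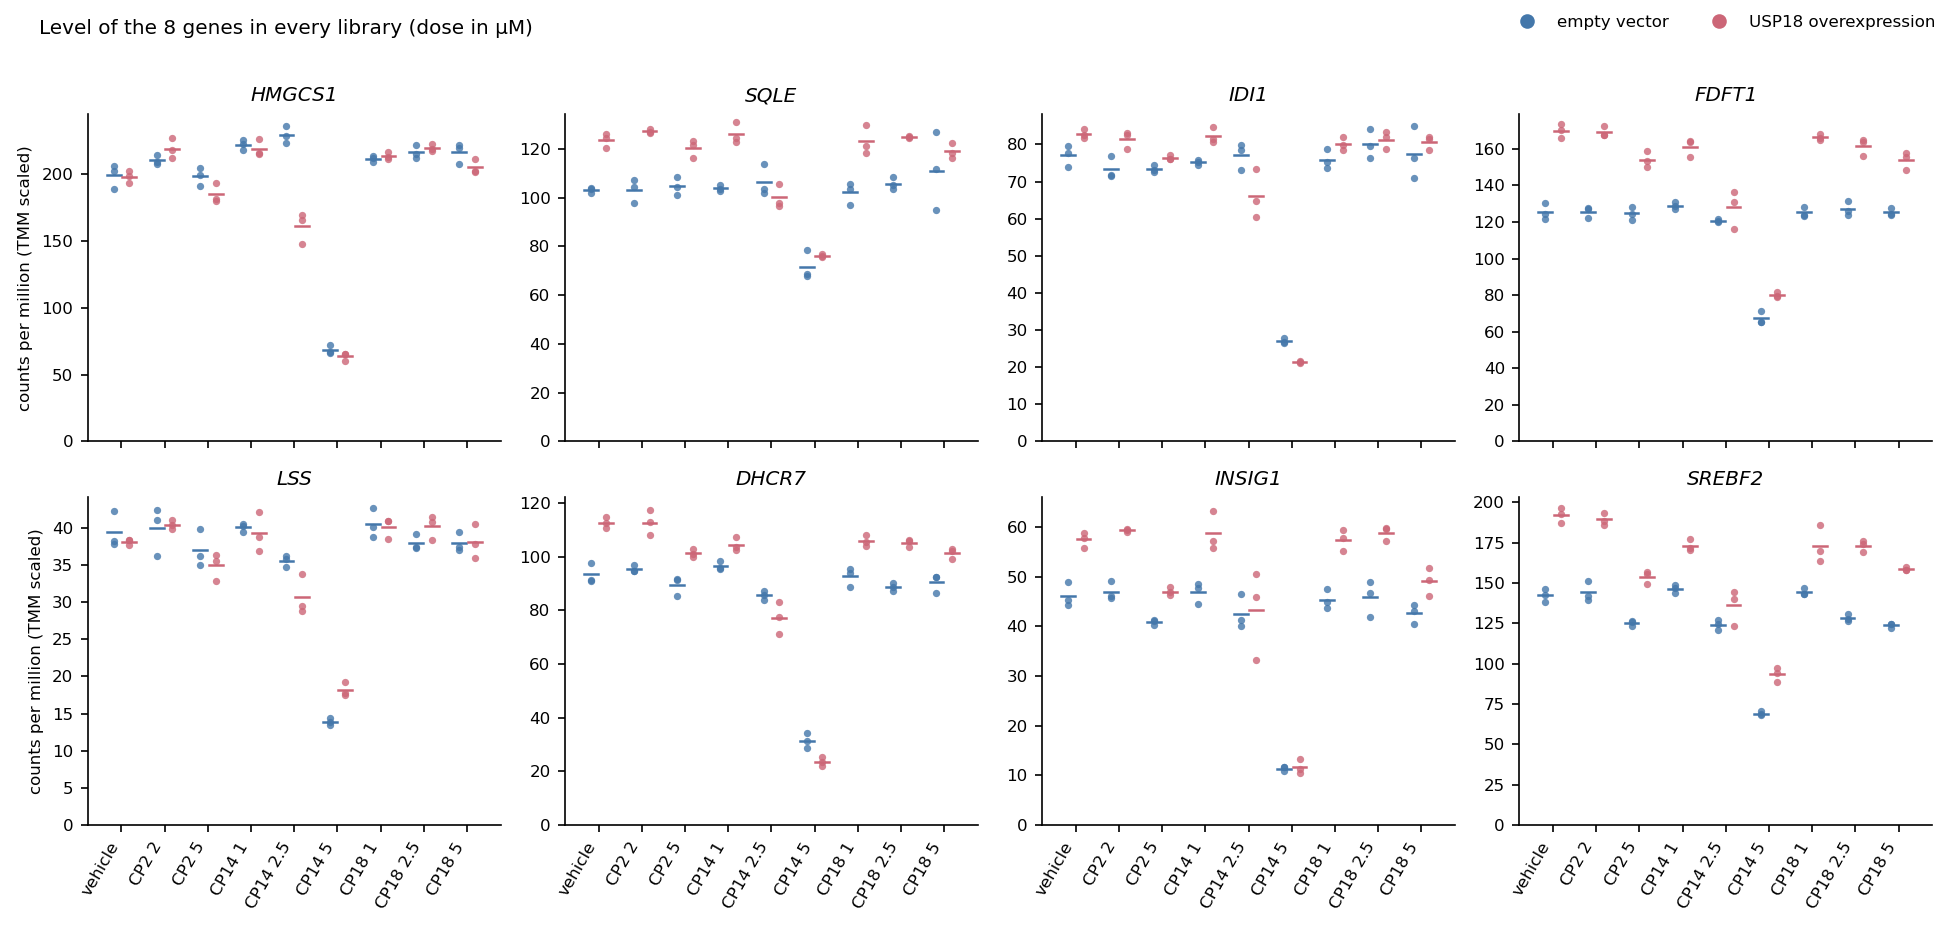
Each panel plots 1 gene, with TMM-scaled CPM on the vertical axis from 0 and vehicle or compound with its dose in µM on the horizontal axis; points are the 3 libraries of a group, short lines their means, and colours the vector. In all 8 panels the 6 libraries with 5 µM CP14 are the lowest, for example 60.2 to 72.4 CPM for HMGCS1 against 148 CPM or more in every other library.

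HMGCS1 and IDI1, which act before squalene, fell strongly with 5 µM CP14. HMGCS1 (ENSG00000112972.15, chromosome 5 from 43287470 to 43313512, GRCh38) encodes the cytosolic synthase that makes HMG-CoA. In empty-vector cells it was at 189, 202 and 206 CPM with vehicle and at 66.7, 66.1 and 72.4 CPM with 5 µM CP14. USP18 cells had 193, 202 and 198 CPM with vehicle and 60.2, 65.7 and 65.6 CPM with 5 µM CP14. All treated libraries were lower than all vehicle libraries in both cell types. The log2 fold change was -1.55 in empty-vector cells (95% interval -1.64 to -1.45, adjusted p = 2.6e-17) and -1.64 in USP18 cells (-1.73 to -1.54, adjusted p = 7.3e-18), both from edgeR's quasi-likelihood test. IDI1 (ENSG00000067064.11, chromosome 10 from 1039152 to 1049119) encodes the isomerase of isopentenyl diphosphate. It went from 79.5, 74.1 and 77.8 CPM to 27.9, 26.9 and 26.5 CPM in empty-vector cells. USP18 cells went from 82.5, 84.1 and 81.7 CPM to 21.4, 21.2 and 21.7 CPM. That left 35.0% of the vehicle level in empty-vector cells (adjusted p = 6.5e-17) and 25.8% in USP18 cells (log2 fold change -1.96, 95% interval -2.06 to -1.86, adjusted p = 1.0e-18).

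The squalene enzymes FDFT1 and SQLE fell less. FDFT1 (ENSG00000079459.13, chromosome 8 from 11795573 to 11839395) encodes squalene synthase, the first enzyme committed to sterols. In empty-vector cells it had 124, 121 and 130 CPM with vehicle and 71.3, 65.4 and 65.4 CPM with 5 µM CP14. USP18 cells had 166, 170 and 174 CPM with vehicle and 81.5, 79.8 and 79.0 CPM with 5 µM CP14. Groups did not overlap, and the log2 fold changes were -0.90 (95% interval -0.99 to -0.82, adjusted p = 4.9e-14) and -1.09 (-1.17 to -1.01, adjusted p = 7.0e-16). SQLE (ENSG00000104549.12, chromosome 8 from 124998497 to 125022283) encodes squalene epoxidase, an oxygen-dependent control point. Its libraries had 102, 104 and 104 CPM with vehicle and 68.9, 67.9 and 78.5 CPM with 5 µM CP14 in empty-vector cells. In USP18 cells they had 120, 124 and 126 CPM and then 76.8, 76.0 and 75.6 CPM. SQLE kept the largest share of its vehicle level among the 8 genes, 69.3% in empty-vector cells (log2 fold change -0.53, 95% interval -0.62 to -0.43, adjusted p = 1.8e-09) and 61.4% in USP18 cells (-0.70, -0.80 to -0.61, adjusted p = 8.1e-12).

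Past squalene, LSS and DHCR7 fell to different extents in the 2 cell types. LSS (ENSG00000160285.15, chromosome 21 from 46188141 to 46228824) encodes lanosterol synthase, which closes the sterol rings. It was at 37.8, 38.2 and 42.2 CPM with vehicle and 13.5, 14.4 and 13.9 CPM with 5 µM CP14 in empty-vector cells. USP18 cells were at 38.4, 38.4 and 37.6 CPM and then 17.5, 17.8 and 19.3 CPM. All 3 treated libraries of USP18 cells were above all 3 of empty-vector cells, although the vehicle groups overlapped. The log2 fold changes were -1.51 (95% interval -1.65 to -1.37, adjusted p = 2.2e-14) and -1.07 (-1.21 to -0.94, adjusted p = 2.6e-12). DHCR7 (ENSG00000172893.15, chromosome 11 from 71428193 to 71452868) encodes the reductase that turns 7-dehydrocholesterol into cholesterol. Its level was 97.7, 91.1 and 91.6 CPM with vehicle and 28.8, 31.4 and 34.3 CPM with 5 µM CP14 in empty-vector cells. USP18 cells had 111, 113 and 115 CPM and then 25.4, 21.9 and 23.7 CPM. Here the order of the vectors turned round, with USP18 cells higher in all libraries with vehicle and lower in all libraries with 5 µM CP14. The log2 fold changes were -1.57 (95% interval -1.69 to -1.46, adjusted p = 7.3e-16) and -2.26 (-2.38 to -2.14, adjusted p = 2.0e-18).

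Of the regulators, INSIG1 lost the most of all 8 genes in empty-vector cells. In USP18 cells INSIG1 and DHCR7 had overlapping 95% intervals, so they cannot be ordered there. INSIG1 (ENSG00000186480.13, chromosome 7 from 155297776 to 155310235) had 45.4, 48.9 and 44.4 CPM with vehicle and 10.8, 11.6 and 11.6 CPM with 5 µM CP14 in empty-vector cells. USP18 cells had 55.9, 57.9 and 58.9 CPM and then 13.3, 10.4 and 11.4 CPM. The treated groups of both cell types overlapped at about the same level. The log2 fold changes were -2.03 (95% interval -2.19 to -1.87, adjusted p = 1.0e-15) and -2.30 (-2.46 to -2.15, adjusted p = 5.2e-17), which left 24.5% and 20.2% of the vehicle level. SREBF2 (ENSG00000198911.12, chromosome 22 from 41833105 to 41907306) was at 146, 142 and 138 CPM with vehicle and 68.5, 67.9 and 70.4 CPM with 5 µM CP14 in empty-vector cells. In USP18 cells it was at 197, 187 and 192 CPM and then 97.4, 88.6 and 94.4 CPM. USP18 cells were thus higher in every library of both conditions, and the share left was nearly the same, 48.3% (log2 fold change -1.05, adjusted p = 2.1e-15) and 48.5% (-1.05, adjusted p = 6.8e-16).

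Counted together, 8 of 8 genes were lower with 5 µM CP14 in empty-vector cells at an adjusted p under 0.05, where 32.1% of the 15947 genes tested were lower and 31.0% were higher. The 8 genes were chosen with earlier results of these data known, so such counts, here and below, are descriptions beside the shares of all genes. In USP18 cells 8 of 8 were lower, against 34.3% of all genes lower and 34.4% higher. With a log2 fold change under -1 as well, the study's own threshold, 6 of 8 passed in empty-vector cells (7.53% of all genes) and 7 of 8 in USP18 cells (8.74%). SREBF2 in USP18 cells lay close to that threshold, with values from -1.06 to -0.99 when a library was left out. The median log2 fold change of the 8 genes was -1.51 for empty-vector cells and -1.36 for USP18 cells, and that of all genes tested was 0.0050 and 0.0109. RNA from whole cultures cannot separate less RNA of these genes in each cell from a smaller share of cells that express them. The values are shares of each library's total. This dose changed most of the transcriptome, and the keratin gene KRT8 moved as well, with a mean of 6154 CPM with vehicle and 2187 CPM with 5 µM CP14 in empty-vector cells. USP18 cells had 3730 CPM and then 1330 CPM of it. The sum of 5 epithelial genes, of which KRT8 is 1, was 13040 to 13210 CPM with vehicle and 7454 to 8023 CPM with 5 µM CP14 in empty-vector cells. In USP18 cells it was 8641 to 8896 CPM with vehicle and 6308 to 6534 CPM with 5 µM CP14, and there KRT8 alone fell by as much as the sum. The part of these changes in the results was not tested.

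A treatment effect that differs between the vectors was tested as the interaction of treatment and vector, where a negative value is a deeper fall in USP18 cells. At 5 µM CP14, 5 of 8 genes passed, where 27.7% of all genes did. The fall was deeper in USP18 cells for DHCR7 (interaction -0.69, standard error 0.0827, adjusted p = 2.4e-06), IDI1 (-0.44, standard error 0.0683, adjusted p = 4.9e-05) and FDFT1 (-0.19, standard error 0.0580, adjusted p = 0.019). LSS had the opposite sign, with a fall that was less deep in USP18 cells (0.43, standard error 0.0931, adjusted p = 0.0013). SQLE was close to the threshold (-0.18, adjusted p = 0.047), and its call ended with 1 fit over all 54 libraries (0.11), with DESeq2 (0.065), with RLE size factors (0.052) and with library totals only (0.065). SQLE also lost its call in 10 of 12 fits that each left out a library, with an interaction of -0.11 (adjusted p = 0.17) without replicate 3 of 5 µM CP14 in empty-vector cells. For FDFT1 the call ended in 4 of these 12 fits, without replicate 1 of 5 µM CP14 or replicate 2 of vehicle in empty-vector cells (0.071 and 0.055), and without replicate 3 of 5 µM CP14 or of vehicle in USP18 cells (0.054 and 0.067). INSIG1, HMGCS1 and SREBF2 did not pass, with interactions of -0.28 for INSIG1 (95% interval -0.50 to -0.05, adjusted p = 0.063), -0.09 for HMGCS1 (-0.22 to 0.04, adjusted p = 0.34) and 0.00 for SREBF2 (-0.11 to 0.12, adjusted p = 0.96). INSIG1 passed without replicate 1 of 5 µM CP14 in USP18 cells (0.0079) and without replicate 2 of vehicle in empty-vector cells (0.042).

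At 2.5 µM CP14 the cell types parted. In USP18 cells all 8 genes were lower than with vehicle (8 of 8, where 16.4% of all genes were lower and 16.3% higher), and their sum was 678, 753 and 797 CPM, 76.2% of the vehicle mean. In empty-vector cells the sum was 813, 808 and 844 CPM, 99.5% of the vehicle mean, and 2 of 8 genes passed in either direction, where 15.1% of all genes did. Those were HMGCS1, which rose (log2 fold change 0.20, standard error 0.0441, adjusted p = 0.0051), and SREBF2, which fell (-0.20, standard error 0.0461, adjusted p = 0.0071). DHCR7 (-0.13, adjusted p = 0.069) passed with all 54 libraries in 1 fit (0.049), with only both groups compared (0.034) and without replicate 1 or 3 of the treated USP18 cells (0.02 and 0.033), and LSS (-0.15, 0.087) without that replicate 3 (0.048). HMGCS1 thus went in opposite directions, from the vehicle values above to 228, 223 and 236 CPM in empty-vector cells and to 148, 165 and 170 CPM in USP18 cells. DHCR7 fell most in USP18 cells, to 71.1, 77.5 and 83.3 CPM (log2 fold change -0.55, standard error 0.0460, adjusted p = 6.5e-08), followed by SREBF2 at 123, 140 and 145 CPM (-0.50, standard error 0.0452, adjusted p = 1.6e-07). The log2 fold changes of the other genes in USP18 cells were -0.42 for INSIG1, -0.41 for FDFT1, -0.32 for IDI1, -0.32 for LSS, -0.30 for SQLE and -0.30 for HMGCS1, with adjusted p from 1.4e-06 to 0.0027. None of the 8 passed a log2 fold change of -1 at this dose. The sum of the 5 epithelial genes was 8288 to 8399 CPM in these USP18 cells, beside 8641 to 8896 CPM with vehicle. The part of this change in the results was not tested. Replicate 1 of the treated USP18 cells was the lowest of its group in 8 of 8 genes, most clearly for INSIG1 with 33.2 CPM beside 45.9 and 50.6 CPM. Without that library 8 genes were still lower, and the change of INSIG1 was -0.26 (adjusted p = 0.0036) in place of -0.42.

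The interaction at 2.5 µM CP14 passed for 6 of 8 genes, where 8.00% of all genes did. For each of the 6, the change from vehicle was lower in USP18 cells. Of these 6, HMGCS1 rose in empty-vector cells and SREBF2 fell, whereas SQLE (0.04), IDI1 (0.00), FDFT1 (-0.06) and DHCR7 (-0.13) did not pass there. HMGCS1 had the largest interaction, -0.50 (standard error 0.0630, adjusted p = 2.0e-04), then DHCR7 with -0.42 (adjusted p = 7.6e-04), FDFT1 with -0.35 (adjusted p = 0.0024) and SQLE with -0.35 (adjusted p = 0.0017). IDI1 followed with -0.32 (adjusted p = 0.016) and SREBF2 with -0.30 (adjusted p = 0.0079). FDFT1 had means of 170 CPM in USP18 and 125 CPM in empty-vector cells with vehicle, and 128 and 121 CPM at this dose. SREBF2 had 192 and 142 CPM, and then 136 and 124 CPM. HMGCS1, SQLE, IDI1 and DHCR7 had lower means in USP18 than in empty-vector cells at this dose. LSS (-0.16, 95% interval -0.34 to 0.01, adjusted p = 0.27) and INSIG1 (-0.30, -0.59 to -0.01, adjusted p = 0.21) did not pass. INSIG1 passed with no filter on low counts (0.0012) and without replicate 3 of the treated USP18 cells (-0.42, 0.039), and its interaction was as small as -0.14 without replicate 1 of the same cells.

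At 1 µM CP14 changes were small. In empty-vector cells 1 of 8 genes passed, where 0.861% of all genes did, and it was HMGCS1 at 225, 218 and 222 CPM, which rose by 0.16 (adjusted p = 0.024). That call ended with 1 fit over all 54 libraries (0.077), without treated replicate 1, 2 or 3 (0.11, 0.058 and 0.091) and without replicate 1 of vehicle (0.14). In USP18 cells 3 of 8 passed, where 15.3% of all genes did: HMGCS1 rose by 0.15 (adjusted p = 0.005), and DHCR7 (-0.11, adjusted p = 0.03) and SREBF2 (-0.15, adjusted p = 0.0016) fell. DHCR7 lost its call without replicate 1 or 2 of the treated cells (adjusted p = 0.084 and 0.11) or replicate 2 or 3 of vehicle (0.076 and 0.095), with all 54 libraries in 1 fit (0.089) and with no filter (0.062). The interaction passed for 1 of 8, where 5.79% of all genes did, namely SREBF2 with -0.20 (adjusted p = 0.012, and 0.06 with all 54 libraries in 1 fit). DHCR7 joined it without treated replicate 3 of USP18 cells (-0.18, adjusted p = 0.04) or vehicle replicate 1 of empty-vector cells (-0.19, 0.03). All these treatments were compared with the same 3 vehicle libraries of each cell type, so the comparisons are not independent of each other.

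**Figure D2:**
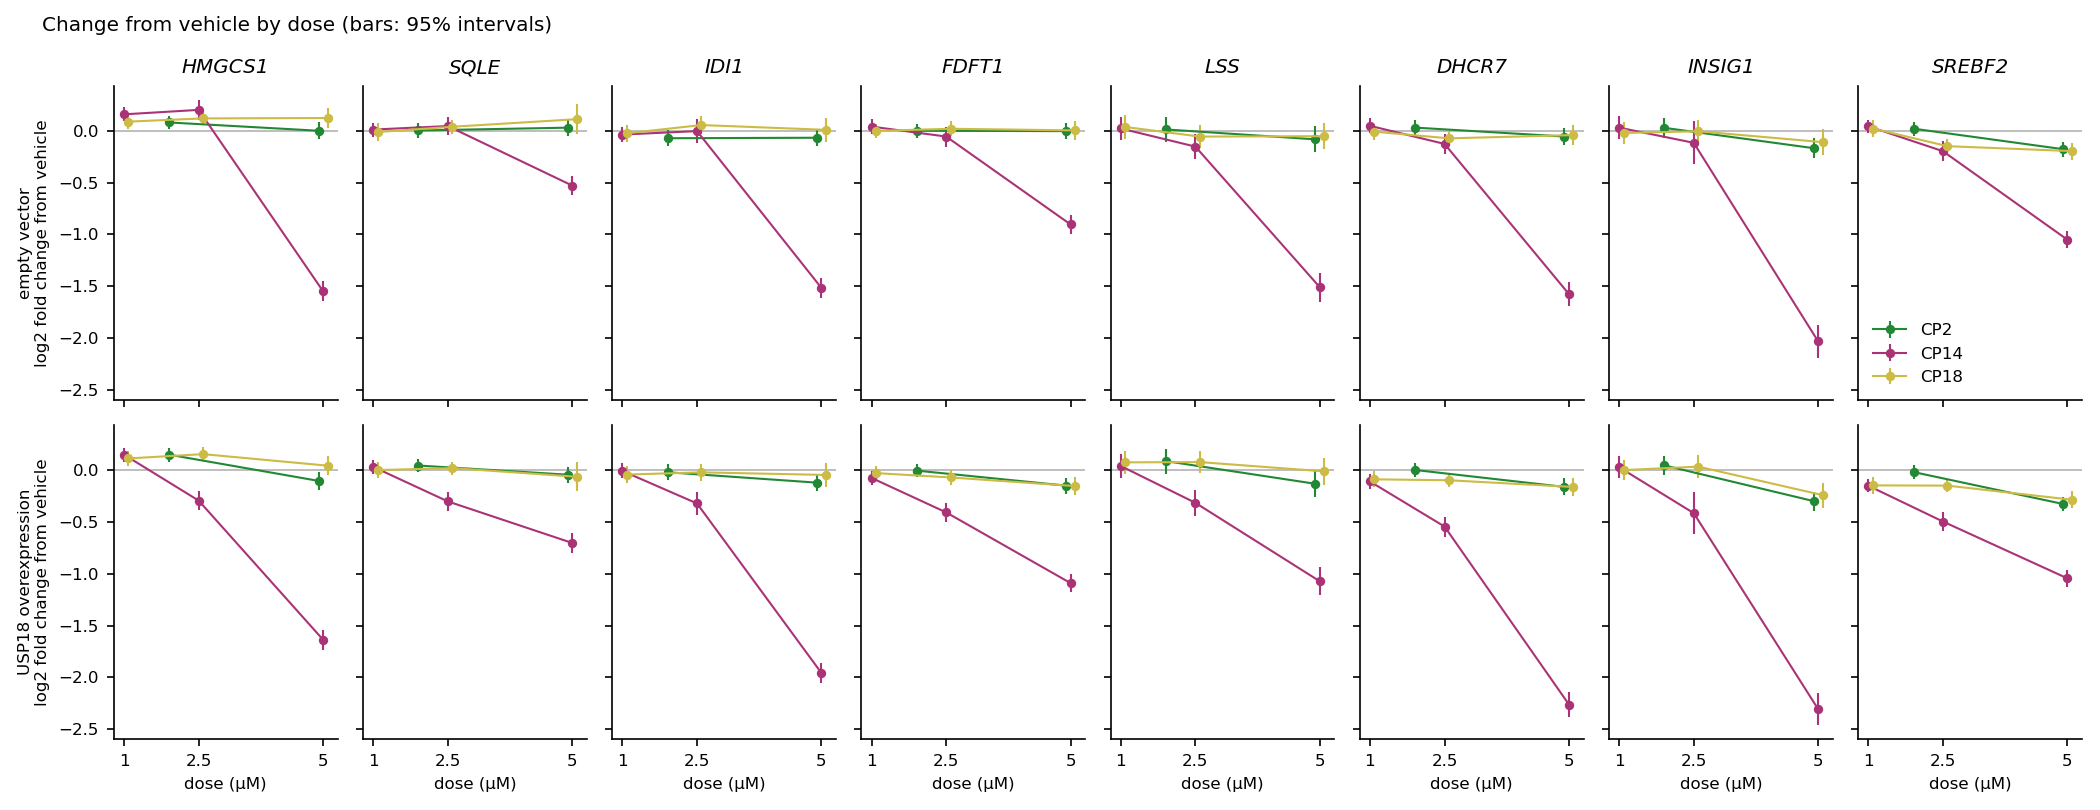
Log2 fold change from vehicle (vertical axis) by dose in µM (horizontal axis) for each gene, with empty-vector cells in the upper panels and USP18 cells in the lower ones; colours are the compounds and bars are 95% intervals. CP14 at 5 µM reaches -2.03 for INSIG1 in the upper panels and -2.30 in the lower ones, and at 2.5 µM all 8 CP14 values of USP18 cells lie from -0.55 to -0.30.

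At 5 µM, CP2 changed the 8 genes less than CP14 did. At 2 µM in empty-vector cells, edgeR called 0 of 8 genes, where 1.84% of all genes passed, with 1 gene at an unadjusted p under 0.05 and 0 genes by DESeq2. In USP18 cells HMGCS1 alone passed, 1 of 8 where 1.13% of all genes did (log2 fold change 0.15, adjusted p = 0.025, and 0.097 with all 54 libraries in 1 fit). That call also ended without treated replicate 1 or 3 (0.084 and 0.16) or vehicle replicate 1, 2 or 3 (0.16, 0.055 and 0.088). The interaction at 2 µM was called for 0 of 8 by edgeR, where 0.0569% of all genes passed, with 0 genes at an unadjusted p under 0.05 and 0 by DESeq2. At 5 µM the genes that passed were lower. In empty-vector cells they were 2 of 8, where 12.1% of all genes passed, INSIG1 (-0.17, adjusted p = 0.021) and SREBF2 (-0.18, adjusted p = 0.0021), of which INSIG1 lost its call with all 54 libraries in 1 fit (0.15) with only both groups compared (0.1) and without replicate 2 of vehicle (0.092). In USP18 cells 5 of 8 passed, where 19.0% of all genes did. SREBF2 fell by 0.33 (adjusted p = 1.5e-06), to 157, 156 and 149 CPM, and INSIG1 by 0.30 (adjusted p = 7.8e-05), to 47.9, 46.2 and 46.9 CPM, while DHCR7, FDFT1 and IDI1 changed by -0.17, -0.15 and -0.12. The call of IDI1 (adjusted p = 0.025) ended with all 54 libraries in 1 fit (0.092) with no filter (0.11), without treated replicate 1 or 3 (0.063 each) and without vehicle replicate 1 or 2 (0.055 and 0.082). HMGCS1 (-0.11, adjusted p = 0.071) passed without treated replicate 1 (0.03). No difference between the vectors was called at 5 µM CP2 by edgeR (0 of 8, where 0.920% of all genes passed), with 2 genes at an unadjusted p under 0.05 and 0 by DESeq2.

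CP18 was tested against vehicle at 3 doses. At 1 µM in empty-vector cells edgeR called 0 of 8, where 0.368% of all genes passed, with 1 gene at an unadjusted p under 0.05 and 0 by DESeq2. In USP18 cells 2 of 8 passed, where 15.7% of all genes did, HMGCS1 (0.11, adjusted p = 0.029) and SREBF2 (-0.15, adjusted p = 0.013). HMGCS1 lost this call with all 54 libraries in 1 fit (0.062) with library totals only (0.06), without treated replicate 1 or 2 (0.079 and 0.13) and without vehicle replicate 1, 2 or 3 (0.19, 0.063 and 0.1). SREBF2 lost it without treated replicate 3 (0.079) or vehicle replicate 1 (0.05). The interaction at 1 µM was called for 0 of 8 by edgeR, where 7.19% of all genes passed, with 1 gene at an unadjusted p under 0.05, SREBF2 (-0.17, adjusted p = 0.071), which DESeq2 called (0.03), making 1 of 8 there, and which edgeR called without treated replicate 1 of USP18 cells (0.0055). At 2.5 µM HMGCS1 and SREBF2 passed in empty-vector cells, 2 of 8 where 5.96% of all genes did, with changes of 0.12 (adjusted p = 0.034, and 0.091 with all 54 libraries in 1 fit) and -0.15 (adjusted p = 0.0063). The call of HMGCS1 ended without treated replicate 1 or 3 (0.086 and 0.15) or vehicle replicate 1 or 2 (0.23 and 0.064), and that of SREBF2 without vehicle replicate 1 (0.052). In USP18 cells 3 of 8 passed, where 14.2% of all genes did: HMGCS1 (0.15), SREBF2 (-0.15) and DHCR7 (-0.10, adjusted p = 0.047, and 0.061 by DESeq2). DHCR7 lost its call with all 54 libraries in 1 fit (0.14), with no filter (0.072) and in 9 of 12 fits with a library left out, with an adjusted p up to 0.16 without vehicle replicate 3 of USP18 cells. The interaction at 2.5 µM was called for 0 of 8 by edgeR, where 0.197% of all genes passed, with 0 genes at an unadjusted p under 0.05 and 0 by DESeq2.

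With 5 µM CP18, SREBF2 was the gene that passed in empty-vector cells, 1 of 8 where 8.40% of all genes did, at 125, 124 and 122 CPM (log2 fold change -0.20, adjusted p = 0.0045, and 0.061 with only both groups compared). In USP18 cells 4 of 8 were lower, where 10.7% of all genes passed in either direction. They were SREBF2 (-0.29, adjusted p = 4.9e-05), INSIG1 (-0.24, adjusted p = 0.0089), DHCR7 (-0.17, adjusted p = 0.018) and FDFT1 (-0.16, adjusted p = 0.02), but SREBF2 alone passed without treated replicate 1 (0.08 for INSIG1, 0.064 for DHCR7, 0.13 for FDFT1) or vehicle replicate 3 (0.057, 0.097 and 0.12). DHCR7 and FDFT1 also lost their calls without treated replicate 2 (0.051 and 0.058) or vehicle replicate 2 (0.071 and 0.084), and DHCR7 without treated replicate 3 (0.087). The interaction was called for 0 of 8 by edgeR, where 0.268% of all genes passed, with 1 gene at an unadjusted p under 0.05 and 0 by DESeq2. SQLE was the least even of the 8 genes in empty-vector cells with this treatment, at 112, 127 and 94.8 CPM. Without replicate 3 it passed (0.21, adjusted p = 0.0056), as did HMGCS1 (0.14, 0.024) and the interaction of SQLE (-0.26, 0.05).

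Compounds were compared with each other at matched doses, as 10 comparisons without vehicle. CP14 at 5 µM stood below CP18 at 5 µM for 8 of 8 genes in empty-vector cells (28.8% of all genes were lower) and for 8 of 8 in USP18 cells (31.3%). INSIG1 differed by -1.91 in empty-vector cells (95% interval -2.09 to -1.74) and DHCR7 by -2.09 in USP18 cells (-2.23 to -1.95), and SQLE by the least, -0.63 in both (-0.80 to -0.47 in each). Against CP2 at 5 µM, CP14 was again lower for 8 of 8 genes in empty-vector cells (29.9% of all genes) and 8 of 8 in USP18 cells (33.9%), with log2 differences from -1.86 (INSIG1) to -0.55 (SQLE) and from -2.11 (DHCR7) to -0.68 (SQLE). At 2.5 µM in USP18 cells CP14 was lower than CP18 for 8 of 8, where 13.9% of all genes were lower. The differences ran from -0.44 to -0.30, with adjusted p from 7.7e-07 to 0.0028. With a library left out, the difference of INSIG1 ran from -0.57 to -0.28, and it passed in 12 of 12 fits. The 2.5 µM libraries of empty-vector cells gave 0 of 8 by edgeR, where 1.80% of all genes passed, with 0 genes at an unadjusted p under 0.05 and 0 by DESeq2. Their 95% intervals reached from -0.33 (INSIG1) to 0.17 (HMGCS1).

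At 1 µM, CP14 and CP18 were not told apart on the 8 genes. In empty-vector cells edgeR called 0 of 8, where 0.0191% of all genes passed, with 1 gene at an unadjusted p under 0.05 and 0 by DESeq2, and the 95% intervals lay between -0.13 (LSS) and 0.17 (INSIG1). In USP18 cells it called 0 of 8 as well, where 0.0191% of all genes passed, with 0 genes at an unadjusted p under 0.05 and 0 by DESeq2, and with intervals between -0.14 (LSS) and 0.14 (INSIG1). CP18 and CP2 at 5 µM differed for 0 of 8 genes in empty-vector cells by edgeR, where 0.0257% of all genes passed, with 1 gene at an unadjusted p under 0.05 and 0 by DESeq2. In USP18 cells the count was 0 of 8, where 0.00641% of all genes passed, with 1 gene at an unadjusted p under 0.05 and 0 by DESeq2. The gene with an unadjusted p under 0.05 was HMGCS1 in each case, higher with CP18 by 0.12 (95% interval 0.02 to 0.22) and 0.15 (0.05 to 0.25), and the widest bounds over the 8 genes were -0.17 and 0.26. A p that misses the threshold does not show that these compounds act alike. CP2 at 2 µM has no matched dose of the other compounds and was compared with vehicle alone.

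**Figure D3:**
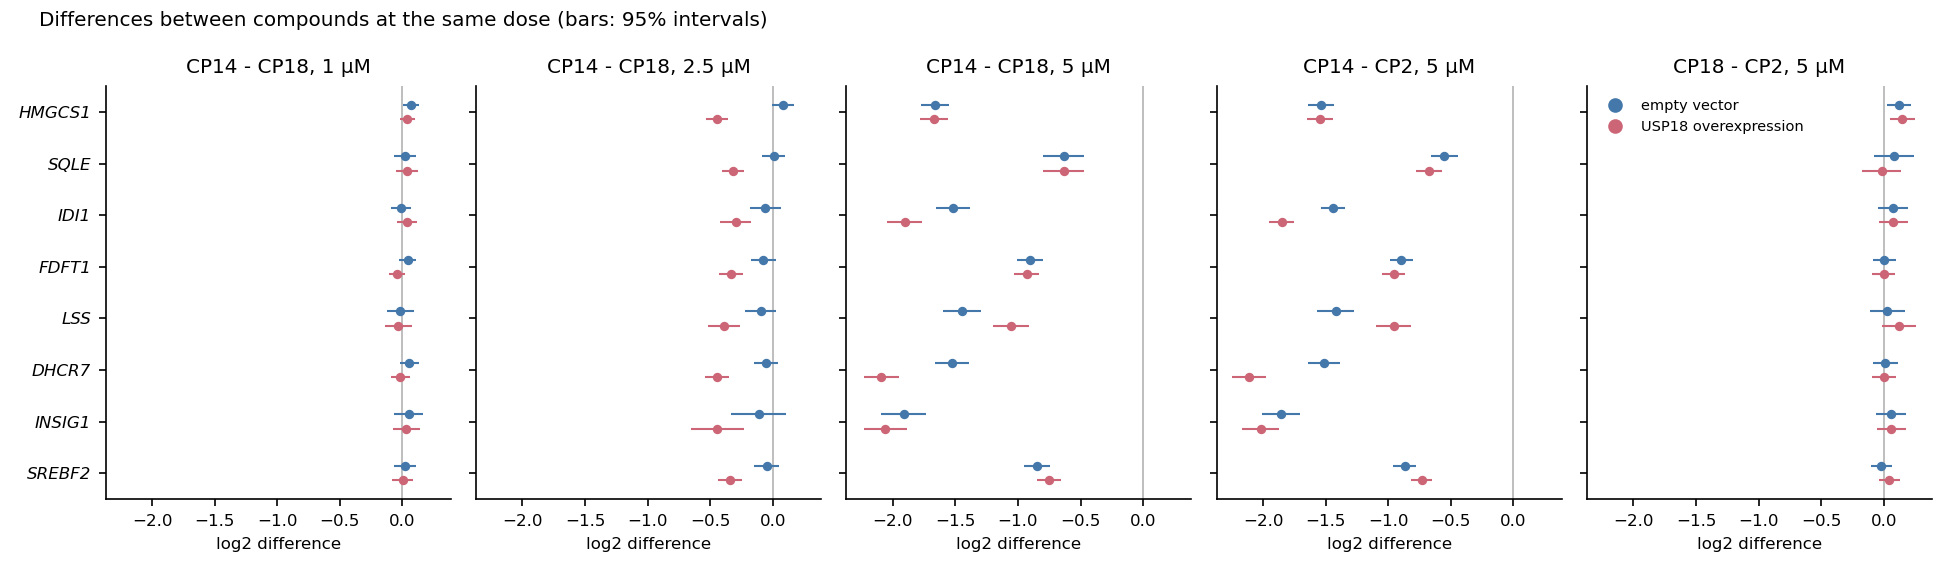
Log2 difference between 2 compounds at the same dose (horizontal axis) for each gene (vertical axis), with 1 panel for each of the 5 pairs; points are the fitted differences in empty-vector and USP18 cells and bars are 95% intervals. At 5 µM, CP14 lies left of 0 for all 8 genes against CP18 and CP2, from -2.11 to -0.55, whereas CP18 against CP2 lies near 0.

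The vector itself went with a difference in the same genes before any compound. USP18 was at 10.6 to 11.1 CPM in empty-vector cells and 1292 to 1328 CPM in USP18 cells with vehicle, or 6.92 on the log2 scale (adjusted p = 1.3e-25), so the vectors can be told apart in every vehicle library. Its level in USP18 cells was not the same under treatment, with 1965 to 2115 CPM at 5 µM CP14, 1175 to 1197 CPM at 2.5 µM CP14 and 947 to 1055 CPM at 1 µM CP14 or CP18, so the interactions compare cells in which USP18 itself differed by treatment. The part of this in the interactions was not tested. With vehicle, 6 of 8 genes were higher in USP18 cells, where 29.0% of all genes were higher and 28.7% lower. FDFT1 was higher by 0.44 (standard error 0.0310, adjusted p = 1.3e-09) and SREBF2 by 0.43 (standard error 0.0292, adjusted p = 6.3e-10), then INSIG1 by 0.32 (adjusted p = 1.5e-05), DHCR7 by 0.27 (adjusted p = 1.8e-06) and SQLE by 0.26 (adjusted p = 8.6e-07). For each of these 5 genes the 3 USP18 libraries lay above the 3 empty-vector libraries. IDI1 was higher by 0.10 (adjusted p = 0.024), a call that ended with all 54 libraries in 1 fit (0.076), with DESeq2 (0.069) and without replicate 2 of either vehicle group (0.093 and 0.082). HMGCS1 (-0.01, 95% interval -0.08 to 0.06, adjusted p = 0.83) and LSS (-0.05, -0.17 to 0.07, adjusted p = 0.47) did not pass.

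The rest of the pathway was followed in 5 gene lists. Of 13 other cholesterol synthesis enzymes, a list shortened by 1 gene after its values were seen, 12 fell with 5 µM CP14 in empty-vector cells (32.1% of all genes), 0 rose and 1, SC5D, did not pass, with a median log2 fold change of -0.71. In USP18 cells 12 fell (34.3% of all genes), 0 rose and 1, PMVK, did not pass, with a median of -1.11. ACAT2, the cytosolic thiolase at the start of the pathway, changed by -1.94 (adjusted p = 2.0e-16) and -2.58 (adjusted p = 1.8e-18). It fell more than any of the 6 enzymes described above, in either cell type. The interaction was negative for MSMO1, a sterol demethylase (-0.68, adjusted p = 4.5e-06), and ACAT2 (-0.64, adjusted p = 3.4e-05), and positive for MVK, mevalonate kinase (0.40, adjusted p = 0.023). At 2.5 µM CP14 in USP18 cells 11 of the 13 fell (16.4% of all genes), 1 rose (PMVK, 0.26) and 1 did not pass.

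Genes of SREBP processing and of INSIG partners changed in both directions, as did all genes tested at this dose (32.1% lower and 31.0% higher with the empty vector, 34.3% and 34.4% with added USP18). Of 9 genes, 5 fell and 2 rose with 5 µM CP14 in empty-vector cells (median -0.24), and 5 fell and 3 rose in USP18 cells (median -0.36). SREBF1, which encodes the SREBP-1 proteins that favour fatty acid genes, changed by -1.03 (adjusted p = 1.2e-14) and -1.34 (adjusted p = 1.0e-16). INSIG2, the second INSIG gene, rose by 0.52 (adjusted p = 5.7e-06) and 0.29 (adjusted p = 0.0026), while INSIG1 fell. RNF145, a ubiquitin ligase of the endoplasmic reticulum, changed by -0.46 and -1.03, with an interaction of -0.57 (adjusted p = 4.4e-07). Of 8 fatty acid synthesis genes, empty-vector cells had 7 that fell and USP18 cells had 8, with medians of -0.84 and -0.90. The desaturase genes SCD and FADS2 fell most, with -2.04 and -1.89 for SCD and -2.03 and -2.60 for FADS2, empty-vector cells first. At 2.5 µM in USP18 cells 5 of the 9 processing genes and 7 of the 8 fatty acid genes fell, where 16.4% of all genes were lower and 16.3% higher, with -0.62 for SREBF1 and -0.64 for SCD. Both also fell in empty-vector cells at this dose, with -0.42 for SREBF1 and -0.37 for SCD, and ELOVL6 rose by 0.24.

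LXR is a nuclear receptor for oxysterols that drives sterol export. Of 6 LXR target genes, 3 fell and 2 rose with 5 µM CP14 in empty-vector cells (median -0.27), and 2 fell and 1 rose in USP18 cells (median -0.01), beside the shares of all genes just given for this dose (32.1% lower and 31.0% higher, 34.3% and 34.4%). ABCA1, the exporter that loads lipid onto apolipoprotein A-I, rose by 1.38 in empty-vector cells (adjusted p = 1.3e-13) and by 1.65 in USP18 cells (adjusted p = 4.4e-15). ABCG1, another exporter, rose by 1.10 in empty-vector cells, and its value in USP18 cells was 0.16 (adjusted p = 0.17), with an interaction of -0.94 (adjusted p = 1.0e-04). LPCAT3, an enzyme of phospholipid remodelling on the same list, changed by -1.45 and -1.48. Of 8 genes of sterol transport and storage, 6 fell and 2 rose in empty-vector cells (median -0.68), and 5 fell and 2 rose in USP18 cells (median -0.58), beside the same shares. VLDLR, a lipoprotein receptor gene, rose by 1.22 and 1.45, and NPC1, the lysosomal exporter of cholesterol, by 0.50 in empty-vector cells, with more of a rise in USP18 cells and an interaction of 0.70. STARD4, a sterol carrier, changed by -1.61 and -1.59, and TMEM97, a regulator of NPC1, by -1.41 and -1.65. At 2.5 µM in USP18 cells ABCA1 (0.53) and VLDLR (0.68) rose. LPCAT3 (-0.51), NR1H3 (-0.33), STARD4 (-0.67) and SCARB1 (-0.21) fell, where 16.4% of all genes were lower and 16.3% higher. LPCAT3 (-0.22) and SCARB1 (-0.24) also fell in empty-vector cells at this dose.

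**Figure D4:**
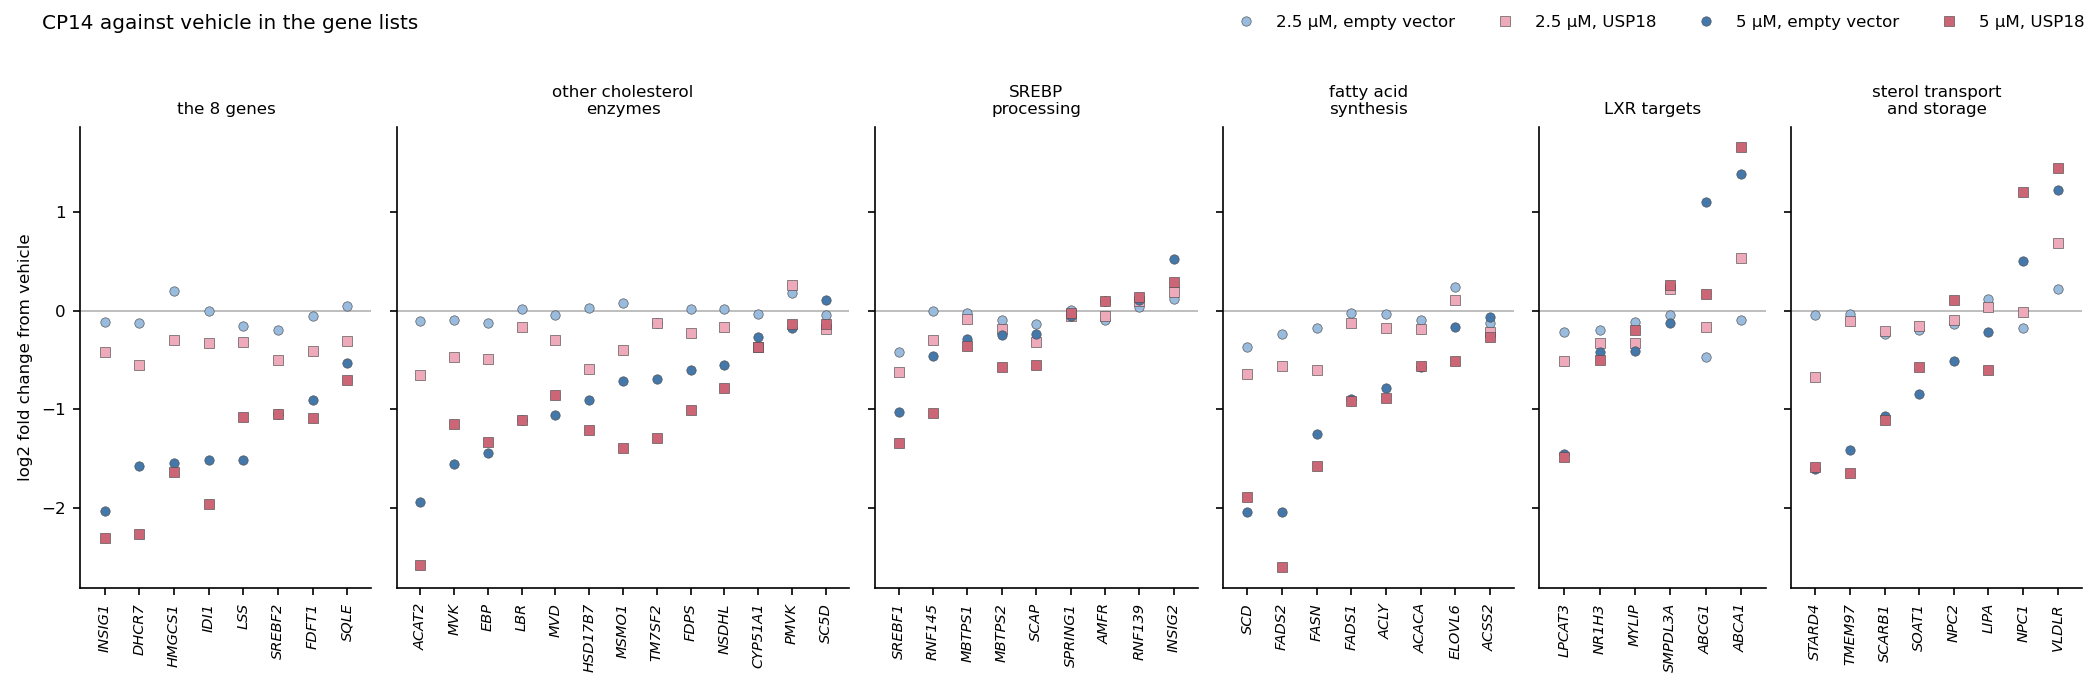
Log2 fold change from vehicle (vertical axis) with CP14 at 2.5 and 5 µM in both cell types for each gene of the 8 and of the 5 lists, ordered within a panel by the value at 5 µM in empty-vector cells; shapes are the vectors and darker symbols the higher dose. Most cholesterol and fatty acid genes lie below 0 at 5 µM, down to -2.60 for FADS2, while ABCA1, VLDLR, NPC1 and INSIG2 lie above it.

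With vehicle, genes of the lists also differed between the vectors, where over 0.5 of all genes did (29.0% higher and 28.7% lower). Of the 13 other synthesis enzymes, 8 were higher and 2 lower in USP18 cells, with TM7SF2 (0.51) and MSMO1 (0.41) the highest and PMVK (-0.69) and MVD (-0.36) the lowest. Among the 9 processing genes 5 were higher and 2 lower, and among the 8 fatty acid genes 2 were higher and 5 lower, ACLY at -0.73 among them. The 6 LXR targets had 3 higher and 1 lower, and the 8 transport genes 1 higher, STARD4 by 1.63, and 7 lower, with VLDLR at -1.35 and NPC1 at -0.71.

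Across the 18 group means of log2 CPM the 8 genes resembled each other, with a Pearson correlation from 0.792 (HMGCS1 and SREBF2) to 0.989 (IDI1 and DHCR7) and a median of 0.937 over 28 pairs. The points share their compounds and vehicle groups, and both 5 µM CP14 groups lie far from the rest, so these values describe mainly that contrast. Apart from the 8 themselves, the genes most like their mean pattern were PBK (0.991), a mitotic kinase gene, HACD3 (0.990), an enzyme of long-chain fatty acid elongation, BLOC1S1 (0.989), VOPP1 (0.988) and DIPK1A (0.988). PBK went from 115, 118 and 124 CPM to 28.1, 25.8 and 29.0 CPM with 5 µM CP14 in empty-vector cells, a log2 fold change of -2.11, given as a description because the gene was chosen by this pattern. Of 10361 candidate genes, the 8 included, 797 had a correlation over 0.9, so the pattern is common in this table.

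The cell line was checked against markers of lung cell types. The epithelial keratin genes KRT8, KRT18 and KRT7 were abundant in every library, each with at least 25546 counts, while the other 2 genes of that list were lower, CDH1 with 414 to 5392 counts and EPCAM with 26 to 293. Of 5 alveolar type II genes, SFTPB had 0 counts in all 54 libraries, SFTPC had 3 counts or fewer in 49 and NKX2-1 in 33, so the surfactant genes that define this cell type were at or near 0. ABCA3 made up most of the alveolar sum, which was 50.7 to 58.4 CPM with vehicle and 92.4 to 101 CPM with 5 µM CP14 in empty-vector cells. In USP18 cells that sum was 41.4 to 44.1 CPM and then 82.3 to 83.2 CPM. The leukocyte sum, mostly CD14, was 3.01 to 3.59 CPM with vehicle and 0.496 to 1.25 CPM with 5 µM CP14 in empty-vector cells, and 2.44 to 2.82 CPM and then 0.0495 to 0.307 CPM in USP18 cells, with CD3E at 0 counts in all 54, and the endothelial sum was at most 0.608 CPM. The fibroblast sum was 11.0 to 13.9 CPM with vehicle and 6.23 to 6.95 CPM with 5 µM CP14 in empty-vector cells, nearly all from COL1A1, and 4.78 to 4.93 CPM and then 4.03 to 4.31 CPM in USP18 cells, while DCN had 3 counts or fewer in all 54. Whether the alveolar, leukocyte and fibroblast changes have a part in the results was not tested.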

How the data were processed

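The authors trimmed reads with cutadapt 1.18, aligned them with STAR 2.7.0f to hg38 and deposited RSEM 1.3.1 expected counts per gene, without scaling between libraries (versions from the sample records; the paper gives another release of RSEM). The tests used edgeR 4.0.16 under R 4.3.3 on rounded counts (TMM, filterByExpr with a minimum count of 10 and total of 15, quasi-likelihood test, two-sided, Benjamini-Hochberg adjustment over all genes tested). Each fit held 12 libraries, vehicle and 1 compound dose or 2 compounds in both cell types, and the vehicle comparison of the vectors held 6. A gene passed at an adjusted p under 0.05. The members and lists were chosen with earlier results of these data known, and the list of other cholesterol enzymes was shortened by 1 gene after its values were seen. Named genes were the 8, USP18, up to 2 rises and 2 falls of largest size per list among genes that passed, and the 5 most alike; other names, markers and genes that did not pass were chosen after their values were seen. Alternatives were RLE size factors, library totals only, no filter, a filter of 10 counts in each library, DESeq2 1.42.0, a replicate block, only the groups compared, all 54 libraries in 1 fit, and leaving out each library. Positions are from GENCODE v44.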

Additional observations from a re-analysis of the deposited data

Results flagged for a closer look

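These differences between the vectors in the response to CP14 passed the test of the interaction, and each is a log2 difference, treated minus vehicle in USP18 cells less the same in empty-vector cells. At 1 µM it was -0.20 for SREBF2. At 2.5 µM it was -0.50 for HMGCS1, -0.35 for SQLE, -0.32 for IDI1, -0.35 for FDFT1, -0.42 for DHCR7 and -0.30 for SREBF2. The change from vehicle was thus lower in USP18 cells for each of them. In empty-vector cells HMGCS1 rose, SREBF2 fell, and SQLE, IDI1, FDFT1 and DHCR7 did not pass. At 5 µM the log2 difference was -0.18 for SQLE, -0.44 for IDI1, -0.19 for FDFT1, 0.43 for LSS and -0.69 for DHCR7. That of SQLE was -0.11 and past no threshold without replicate 3 of treated empty-vector cells. LSS is the exception in sign at that dose, where empty-vector cells kept 35.2% of the vehicle level and USP18 cells 47.5%.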

How the results depend on the processing

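All 8 genes stayed called, in the same direction, in every alternative for CP14 at 5 µM in both cell types, for CP14 at 2.5 µM in USP18 cells and for the 5 comparisons between compounds with 8 calls. No value reversed its direction past the threshold. Of 280 values of single genes, 279 kept their side with RLE size factors, 278 with at least 10 counts in every library, 277 with library totals only (chosen after seeing the data), 276 with DESeq2, 275 with no filter and 267 with all 54 libraries in 1 fit. With only the groups compared, 204 of 208 did, and with a library left out, 3233 of 3312. Scaling by RLE or by totals moved no median of all genes by over 0.1.

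Several counts of called genes moved, and the cause was not tested. By 1 gene moved the interaction of 5 µM CP14, from 5 to 4 (all 54 libraries in 1 fit, DESeq2, library totals only, RLE), that of 2.5 µM CP14, from 6 to 7 (no filter), and 5 µM CP2 in USP18 cells, from 5 to 4 (all 54, no filter) or 6 (at least 10 counts, only the groups compared). So did the vehicle comparison of the vectors, from 6 to 5 (all 54, DESeq2), 2.5 µM CP14 in empty-vector cells, from 2 to 3 (all 54, only the groups compared), 1 µM CP14 in USP18 cells, from 3 to 2 (all 54, no filter), and 2.5 µM CP18 in USP18 cells, from 3 to 2 (all 54, DESeq2, no filter). With all 54 libraries in 1 fit, the count went from 1 to 0 for 1 µM CP14 in empty-vector cells, for its interaction and for 2 µM CP2 in USP18 cells, from 2 to 1 for 1 µM CP18 in USP18 cells and for 2.5 µM CP18 and 5 µM CP2 in empty-vector cells, and from 1 to 2 for 5 µM CP18 in empty-vector cells. With at least 10 counts in every library, the interaction of 1 µM CP14 went from 1 to 2. With library totals only, 1 µM CP18 in USP18 cells went from 2 to 1 and its interaction from 0 to 1. The interaction of 1 µM CP18 also went from 0 to 1 with DESeq2 and with no filter, through SREBF2. With only the groups compared, 5 µM CP18 in empty-vector cells went from 1 to 0 and 5 µM CP2 there from 2 to 1.

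Leaving out 1 library at a time gave 0 to 1 genes for 1 µM CP14 in empty-vector cells (0 without any of its 3 treated libraries or replicate 1 of vehicle) and 1 to 2 for its interaction (2 without replicate 3 of treated USP18 cells or replicate 1 of vehicle empty-vector cells). It gave 0 to 2 for 1 µM CP18 in USP18 cells (0 without replicate 1 of vehicle, 1 without any other library of these groups) and 0 to 1 for its interaction (1 without replicate 1 of treated USP18 cells). For 2 µM CP2 in USP18 cells the range was 0 to 1 (0 without any vehicle library or treated replicate 1 or 3), and for 5 µM CP2 in empty-vector cells 1 to 2 (1 without replicate 2 of vehicle). CP14 at 2.5 µM in empty-vector cells gave 2 to 4 (4 without replicate 3 of treated USP18 cells), and the interaction of 5 µM CP14 gave 3 to 5 (3 without replicate 3 of treated or of vehicle USP18 cells). CP18 gave 0 to 2 at 2.5 µM in empty-vector cells (0 without replicate 1 of vehicle, 1 without replicate 2 of vehicle or treated replicate 1 or 3). At 5 µM CP18 gave 1 to 3 in empty-vector cells (3 without treated replicate 3), 1 to 4 in USP18 cells (1 without treated replicate 1 or vehicle replicate 3, 2 without treated or vehicle replicate 2) and 0 to 1 for the interaction (1 without replicate 3 of treated empty-vector cells).

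Replicate numbers do not pair libraries in these data. Over 459 pairs of libraries with the same number, the correlation of deviations from group means ran from -0.137 to 0.135 with a median of -0.001, and 18 of 54 libraries were closest to one of their own number. With a replicate block, 278 of 280 values kept their side, the interaction of 1 µM CP18 went from 0 to 1 genes, and 2.5 µM CP18 in USP18 cells from 3 to 2, where DHCR7 lost its call (adjusted p = 0.058).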
